A study of Homo sapiens with 12 samples.

Results

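The mitochondrial genome encodes 6 subunits of respiratory complexes III to V, and their transcripts were followed across 4 plasmids in a human palate cell line. The genes are MT-CYB of complex III, MT-CO1, MT-CO2 and MT-CO3 of complex IV, and MT-ATP6 and MT-ATP8 of complex V (ATP synthase). They were chosen by gene name, as the MT-CYB, MT-CO and MT-ATP rows of a table of 63241 genes, and all 6 were present and passed the filter on low values (at least 1 TPM in at least 3 libraries), as did 14718 genes in all.

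The cells were HEPM, a line derived from the mesenchyme of the human embryonic palate, and their poly(A) RNA was sequenced 6 h after plasmid transfection. The plasmids encoded MSX1, a homeobox transcription factor needed for craniofacial development, in 3 variant forms and as wild type (WT). The variants R157S, R157K and R157F carry serine, lysine and phenylalanine in place of an arginine. Each of the 4 plasmids was represented by 3 libraries, 12 in all. Every group, WT included, therefore received an MSX1 plasmid, and cells with an empty vector or no plasmid were not analysed here. The comparison asks how a change at this arginine alters expression 6 h after transfection. Values are TPM, transcript abundance per unit of length as a share of the library, so every value is relative to the rest of the library, and sequencing depth is unknown.

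Mitochondrial transcripts start as long RNAs that run most of the way round the genome and are cut into single messages, largely at the tRNAs that lie between the genes. Most of the mRNAs receive short poly(A) tails, and the pair MT-ATP8 and MT-ATP6 stays together as a bicistronic message. Cytochrome b, from MT-CYB, holds the hemes of complex III that pass electrons from ubiquinol. MT-CO1 encodes the catalytic core of cytochrome c oxidase, MT-CO2 the subunit that takes electrons from cytochrome c, and MT-CO3 a core subunit without redox centres. MT-ATP6 forms part of the proton channel of ATP synthase and MT-ATP8 a small membrane subunit beside it. The remaining subunits of these complexes are encoded in the nucleus and imported.

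The junctions between MT-ATP8, MT-ATP6 and MT-CO3 are shown because these genes share bases, so that reads over them belong to more than 1 gene. In the GENCODE 29 annotation of GRCh38, MT-ATP8 lies at chrM:8366-8572, MT-ATP6 at chrM:8527-9207 and MT-CO3 at chrM:9207-9990, all on the plus strand. The genes for MT-CO1 (chrM:5904-7445), MT-CO2 (chrM:7586-8269) and MT-CYB (chrM:14747-15887) stand apart from these. All 6 are single-exon protein-coding genes whose annotation begins at an ATG. The sequences below, from the GENCODE 29 transcripts, give the whole of MT-ATP8 and the first 90 bases of MT-ATP6 (chrM:8527-8616), with the 46 shared bases in capitals. They also give the last 45 bases of MT-ATP6 (chrM:9163-9207) with its TAA stop in capitals, and the first 45 bases of MT-CO3 (chrM:9207-9251) with its ATG in capitals.
MT-ATP8: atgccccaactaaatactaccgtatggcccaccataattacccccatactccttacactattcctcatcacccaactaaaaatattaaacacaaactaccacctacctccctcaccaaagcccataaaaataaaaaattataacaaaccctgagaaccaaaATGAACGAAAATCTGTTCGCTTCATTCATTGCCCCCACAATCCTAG
MT-ATP6 start: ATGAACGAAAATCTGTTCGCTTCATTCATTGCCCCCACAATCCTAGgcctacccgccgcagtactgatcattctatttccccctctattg
MT-ATP6 end: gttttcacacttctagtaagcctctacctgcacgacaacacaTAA
MT-CO3 start: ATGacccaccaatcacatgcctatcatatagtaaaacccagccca
The 46 shared bases are read as the end of MT-ATP8 and, in another frame, as the start of MT-ATP6. The last A of the MT-ATP6 stop is also the first base of the MT-CO3 start. MT-CYB and MT-CO3 end with a lone T after their last whole codon, and in human mitochondria such ends are known to be completed to a stop by the poly(A) tail. At 207 bases MT-ATP8 is the shortest of the 6, below the 300 to 400 bp for which cDNA fragments were selected per the labels' protocols, which do not say whether adapters are included in that size. MT-CO1, at 1542 bases, is the longest. No source used here says how the authors' estimates divide the reads of the shared bases.

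The 12 libraries carried the markers of their labelled cell type. All 10 palatal mesenchyme markers, PDGFRA and PRRX1 among them, averaged at least 1 TPM. MSX1 is 1 of the 10, and as the plasmids encode it, its level is no sign of cell type. The 10 summed to 11681 to 14617 TPM in R157K, 16487 to 17401 in R157F and 16039 to 16104 in R157S, against 11933 to 14038 TPM in WT. Of them 4 were called higher and 2 lower with R157K, 7 and 2 with R157F, and 6 and 1 with R157S. Of all tested genes 17.3%, 24.4% and 7.6% were higher, and 46.2%, 33.8% and 12.8% lower. Of the markers of other cells, 0 of 5 immune, 2 of 5 endothelial, 2 of 8 epithelial, 2 of 7 muscle and 1 of 5 neural genes averaged at least 1 TPM. Among the defining genes, GRHL2, CD3E, MYOD1 and MYOG were listed at 0 in every library, and the neural gene was TUBB3, at 112 to 260 TPM. MSX1, the gene of the plasmids, averaged 872 ± 213 TPM with R157F, 500 ± 146 with R157K and 451 ± 168 with R157S, against 337 ± 111 TPM with WT (SD, n = 3 each), and R157F passed the test against WT (adjusted p = 0.0029), and with libraries paired by replicate number so did R157K (adjusted p = 0.0396, against 0.13 unpaired). Reads of the plasmid and of the cells' own MSX1 cannot be told apart. WT replicate 2 stood apart in the mitochondrial genes: they made up 9.96% of its TPM, against 5.31% to 7.55% in the other 11 libraries. Its part in each result is given where it matters. The summed endothelial markers, mainly PECAM1 and TEK, were 4.81 to 5.06 TPM in R157K, 5.38 to 7.36 in R157F and 9.90 to 11.67 in R157S, against 11.86 to 12.17 TPM in WT, with CDH5 and KDR near 0. Of these 2 genes, 1 was called lower with R157K, 1 with R157F and 0 with R157S. Summed epithelial markers were 22.19 to 30.31 TPM in R157K, 24.97 to 25.37 in R157F and 22.18 to 25.77 in R157S, against 13.01 to 20.24 TPM in WT. Summed muscle markers were 5.96 to 7.75 TPM in R157K, 10.66 to 13.93 in R157F and 6.93 to 8.72 in R157S, against 6.58 to 8.09 TPM in WT. TUBB3 was called higher with R157K and with R157F. Without WT replicate 2 its R157K call was lost. With trends of GC content and length removed, TUBB3 was called lower with R157K and was not called with R157F. The part of these markers in the results was not tested. The median of all tested genes was 0.34 lower in R157K than in WT on the log2 scale, and 0.08 lower in R157F. Scaling the libraries by median ratios shifts the log2 values by 0.42 in R157K, 0.11 in R157F and 0.03 in R157S against WT. Of the genes called, 27.3% were higher in R157K than in WT, and 50.8% after that scaling. For R157S against WT these shares were 37.3% and 50.2%.

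The clearest result was in 2 of the 6 transcripts. MT-CO1 and MT-ATP6 were lower with R157K and with R157F than with WT, and these calls held under each of the 19 processing alternatives tried. Their libraries did not overlap those of WT, as was so for 63.5% and 66.3% of all tested genes with R157K and R157F. MT-CYB, MT-CO2 and MT-CO3 moved less, and MT-ATP8 did not follow the rest. MT-ATP8 and MT-ATP6 share a message, yet with R157K they changed by 0.23 and -1.07. Their TPM therefore cannot both stand for the level of that message, and the reason was not tested. With R157S 0 of the 6 passed the threshold against WT, where 20.4% of all tested genes did. A gene was called where limma, fitted to log2(TPM + 1) of all 14718 genes, gave an adjusted p under 0.05.

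MT-CO1 had 4897, 5315 and 4921 TPM in the R157K libraries, 6905, 7406 and 6453 TPM in the R157F libraries and 9117, 9813 and 9637 TPM in the R157S libraries, against 12997, 11580 and 9760 TPM in the WT libraries. The R157K and R157F libraries all lay below every WT library and did not overlap each other, while R157S overlapped WT. On the log2(TPM + 1) scale MT-CO1 fell by 1.17 ± 0.10 with R157K (SE, adjusted p = 2.5e-06) and by 0.72 ± 0.10 with R157F (adjusted p = 0.00031), 0.443 and 0.608 of its WT level. Within the label's batches 1, 2 and 3 the differences were -1.41, -1.12 and -0.99 for R157K and -0.91, -0.65 and -0.60 for R157F. The R157S difference of -0.26 had a 95% interval of -0.48 to -0.03 and an adjusted p of 0.088. Without WT replicate 3, the lowest of its group, it was -0.37 with an adjusted p of 0.012.

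MT-ATP6 showed the same order. It had 1981, 2129 and 1830 TPM in R157K, 2386, 2683 and 2158 TPM in R157F and 3782, 3844 and 3956 TPM in R157S, against 4235, 4482 and 3763 TPM in WT. R157K and R157F lay wholly below WT, and all 3 R157S libraries fell within the WT range. The transcript fell by 1.07 ± 0.10 with R157K (adjusted p = 3.5e-06) and by 0.79 ± 0.10 with R157F (adjusted p = 0.0002), and the difference of -0.10 with R157S did not pass the test (95% interval -0.32 to 0.11, adjusted p = 0.45). By batch the R157K differences were -1.10, -1.07 and -1.04 and the R157F differences -0.83, -0.74 and -0.80. Libraries of the same batch number were only weakly alike, so these values mainly show a small spread within the groups. MT-ATP6 shares sequence with a nuclear copy, the pseudogene MTATP6P1, which was listed at 156 ± 26 TPM in R157K, 138 ± 25 in R157F and 309 ± 111 in R157S, against 716 ± 387 TPM in WT (SD, n = 3 each). The copy was called lower with all 3 variants (by 2.08, 2.25 and 1.16 with R157K, R157F and R157S, adjusted p = 0.00018, 0.00037 and 0.037). Its WT libraries ranged from 436 to 1158 TPM, and its calls under the processing alternatives are not given here. Reads of the gene and its copy cannot be told apart here.

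MT-CYB had 1657, 1937 and 1650 TPM in R157K, 1990, 2158 and 1874 TPM in R157F and 2673, 2648 and 2672 TPM in R157S, against 2755, 2409 and 2606 TPM in WT. Again R157K and R157F lay below all WT libraries, and R157S was inside the WT range. The change was -0.57 ± 0.09 with R157K (adjusted p = 0.00014) and -0.37 ± 0.09 with R157F (adjusted p = 0.0046). After scaling by median ratios these became -0.15 and -0.26, which no longer passed the test (adjusted p = 0.24 and 0.053), and the shift of all genes with R157K was -0.34. With trends of GC content and length removed, the R157K change was still called (-0.40, adjusted p = 0.0012) and the R157F change was not (-0.15, adjusted p = 0.16).

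**Figure D1:**
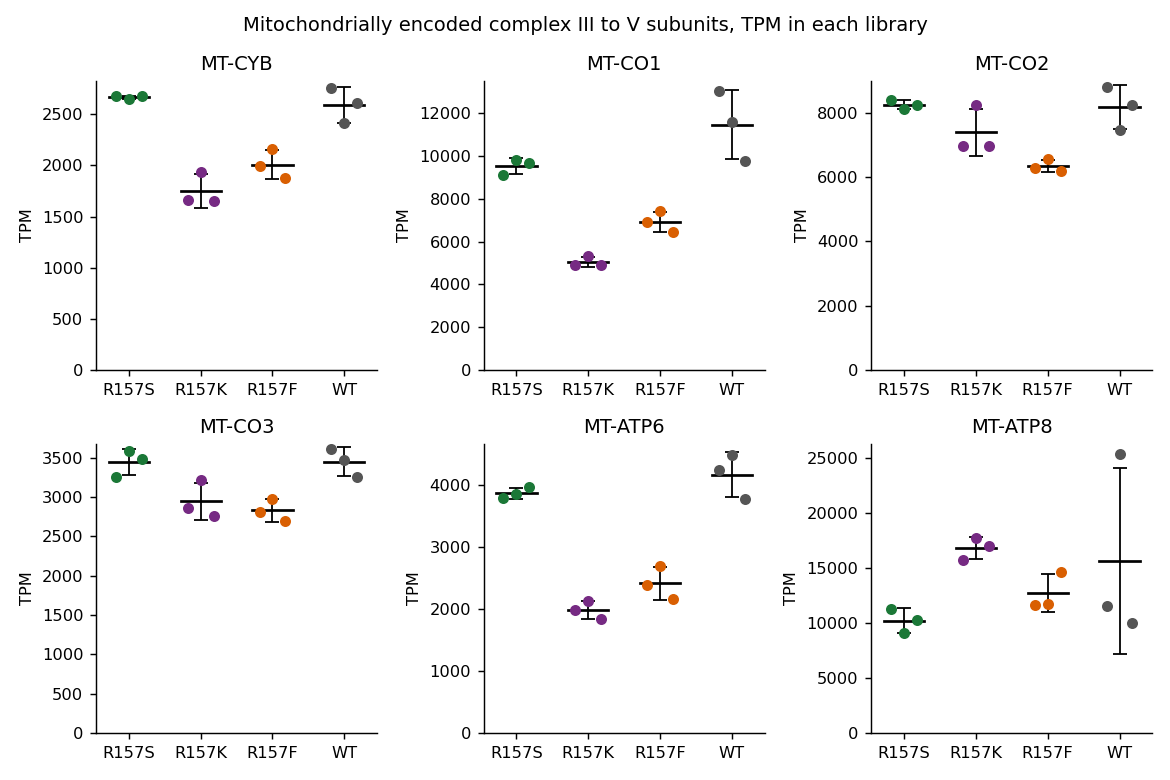
TPM of the 6 subunit transcripts in each of the 12 libraries (points), with the mean and SD of the 3 libraries of each plasmid (black), on axes that start at 0. MT-CO1 and MT-ATP6 are lowest with R157K, followed by R157F, and in MT-ATP8 a single WT library, at 25397 TPM, lies far above the other 2.

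The other complex IV transcripts changed little by comparison. MT-CO2 had 6961, 8228 and 6957 TPM in R157K, 6272, 6542 and 6182 TPM in R157F and 8384, 8112 and 8245 TPM in R157S, against 8808, 7450 and 8227 TPM in WT. Only the R157F libraries lay below all WT libraries. MT-CO2 fell by 0.36 ± 0.09 with R157F (adjusted p = 0.005), and its difference of -0.15 with R157K did not pass the test (95% interval -0.34 to 0.05, adjusted p = 0.18). The sign of the R157K difference depended on the scaling: by median ratios MT-CO2 was 0.27 higher with R157K (adjusted p = 0.046), and the R157F change was -0.26 and not called (adjusted p = 0.063). With no filter on low values the R157F change was not called either (adjusted p = 0.123). Without WT replicate 2 the R157K difference was -0.21 (adjusted p = 0.041), and without R157K replicate 2 it was -0.23 (adjusted p = 0.035).

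MT-CO3 had 2857, 3213 and 2764 TPM in R157K, 2814, 2980 and 2694 TPM in R157F and 3258, 3587 and 3482 TPM in R157S, against 3615, 3472 and 3250 TPM in WT. R157K and R157F lay below WT by a narrow margin. Its decreases of 0.23 ± 0.09 with R157K and 0.28 ± 0.09 with R157F passed the test (adjusted p = 0.034 and 0.013), but by median ratios the R157K value turned to 0.19 higher (adjusted p = 0.12) and the R157F value was -0.18 (adjusted p = 0.16). With no filter on low values neither call remained (adjusted p = 0.183 for R157K and 0.0999 for R157F). Leaving out WT replicate 1 ended both calls too (adjusted p = 0.12 for R157K and 0.056 for R157F). R157K replicate 1, R157K replicate 3 and R157F replicate 1 each did so for R157K (adjusted p = 0.097, 0.12 and 0.051), and R157F replicate 3 for R157F (adjusted p = 0.057).

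MT-ATP8 was the most variable of the 6. It had 15761, 17696 and 16968 TPM in R157K, 11678, 11757 and 14679 TPM in R157F and 11314, 9077 and 10246 TPM in R157S, against 11555, 25397 and 9956 TPM in WT. WT replicate 2 was above every other library, and the coefficient of variation within WT was 54.3%. No variant differed from WT: the changes were 0.23 (95% interval -0.34 to 0.80, adjusted p = 0.46) for R157K, -0.18 (-0.75 to 0.39, adjusted p = 0.58) for R157F and -0.49 (-1.06 to 0.08, adjusted p = 0.17) for R157S. Without WT replicate 2, MT-ATP8 was 0.65 higher with R157K (adjusted p = 0.00062) and 0.24 higher with R157F (adjusted p = 0.13), and its difference with R157S was -0.08 (adjusted p = 0.72). Without WT replicate 3 the R157K value was -0.03 (adjusted p = 0.93) and the R157S value -0.75 (adjusted p = 0.034). The direction of MT-ATP8 with R157K and R157F changed with the WT library left out.

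Counted together, 4 of the 6 transcripts fell with R157K and 0 rose, where 46.2% of all tested genes fell, 17.3% rose and 63.6% were called in either direction. The same 4 did not overlap WT, against 63.5% of all genes. With R157F 5 of 6 fell, where 33.8% of all genes fell and 58.2% were called, and 5 did not overlap WT, against 66.3% of genes. With R157S 0 of 6 were called by limma, where 20.4% of genes were (7.6% higher and 12.8% lower), and 0 of 6 stood clear of WT, against 43.6% of genes. MT-CO1 was the 1 with an unadjusted p under 0.05 for R157S, a looser threshold at which the share of all genes is not given here. The share called with R157K was close to that of all genes. By median ratios 2 (MT-CO1 and MT-ATP6) fell and 1 (MT-CO2) rose with R157K, and 2 fell with R157F. On that scale 4434 of 14718 genes fell and 4578 rose with R157K, and 4189 fell and 4350 rose with R157F. The median change of the 6 was -0.40 with R157K, against -0.34 for all tested genes, -0.365 against -0.08 with R157F, and -0.05 against -0.01 with R157S. In the test of the 4 plasmids together, 5 of 6 were called, where 70.8% of genes were, and MT-ATP8 was not (adjusted p = 0.12). Leaving out WT replicate 2 gave 6 called with R157K, 5 lower and MT-ATP8 higher, and 5 with R157F. Over all genes, 6705 were then lower and 2109 higher with R157K, and 4384 lower and 2780 higher with R157F. Since TPM are shares of bulk RNA, fewer cells with a transcript, fewer mitochondria and less RNA per cell cannot be told apart.

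The 3 variants also differed from each other. Against R157K, R157S was higher in MT-ATP6 by 0.97 ± 0.10 (adjusted p = 2.3e-05), in MT-CO1 by 0.92 ± 0.10 (adjusted p = 3.7e-05), in MT-CYB by 0.61 ± 0.09 (adjusted p = 0.00019) and in MT-CO3 by 0.23 ± 0.09 (adjusted p = 0.043), and lower in MT-ATP8 by 0.72 ± 0.26 (adjusted p = 0.037). These 4 higher and 1 lower compare with 42.2% and 7.9% of all genes, and 5 of 6 did not overlap, against 61.3% of genes. By batch the MT-CO1 differences were 0.90, 0.88 and 0.97 and those of MT-ATP6 0.93, 0.85 and 1.11. The calls of MT-CO3 and MT-ATP8 were the weak ones: leaving out any of the 6 R157S and R157K libraries put MT-ATP8 at an adjusted p of 0.0515 to 0.107. The call of MT-CO3 ended without R157S replicate 2 or 3, R157K replicate 1 or 3, any R157F library or WT replicate 1 (adjusted p = 0.052 to 0.15). By median ratios R157S was lower than R157K in MT-CO3 and MT-CO2, by 0.16 and 0.23, and neither passed the test. MT-CO2 was called without R157K replicate 2 (0.24, adjusted p = 0.034). Of all genes called, 84.2% were higher with R157S, and 45.2% by median ratios.

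Against R157F, R157S was higher in MT-ATP6 by 0.69 ± 0.10 (adjusted p = 0.0074), in MT-CO1 by 0.46 ± 0.10 (adjusted p = 0.03), in MT-CYB by 0.41 ± 0.09 (adjusted p = 0.028) and in MT-CO2 by 0.38 ± 0.09 (adjusted p = 0.035), and in MT-CO3 by 0.28, which did not pass (adjusted p = 0.072). These 4 of 6 compare with 4.31% of all genes higher with R157S and 5.42% called. Of the genes called, 79.6% were higher with R157S, and 49.5% by median ratios, where only MT-ATP6 of the 6 was called (0.61, adjusted p = 0.028). The R157S libraries lay above the R157F libraries in these 5 transcripts and below them in MT-ATP8, without overlap, where 47.6% of genes did not overlap. With the replicate block the MT-CO2 call was lost (adjusted p = 0.056). The calls rest on all 6 libraries: without any of the R157S libraries, or R157F replicate 1 or 2, only MT-ATP6 was called, and without R157F replicate 3 none was (MT-ATP6 adjusted p = 0.057). MT-CO2 also lost its call without R157K replicate 3 (adjusted p = 0.051). MT-CO3 gained one without R157K replicate 2, WT replicate 2 or WT replicate 3 (adjusted p = 0.048, 0.023 and 0.0498).

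R157K and R157F differed in MT-CO1, which was lower with R157K by 0.46 ± 0.10 (adjusted p = 0.0078), with batch differences of -0.50, -0.48 and -0.39. That was 1 of 6 lower, where 26.4% of genes were lower, 3.3% higher and 29.7% called, and 4 of 6 did not overlap, against 52.8% of genes. MT-ATP6 was 0.28 lower with R157K (95% interval -0.50 to -0.06, adjusted p = 0.053) and passed the test with the replicate block (adjusted p = 0.038). MT-CYB differed by -0.20 (95% interval -0.40 to -0.00), MT-CO2 by 0.22 (0.02 to 0.41), MT-CO3 by 0.06 (-0.13 to 0.24) and MT-ATP8 by 0.41 (-0.16 to 0.98), none past the threshold. By median ratios the MT-CO1 difference was -0.14 (adjusted p = 0.51), MT-ATP6 turned to 0.03, MT-CYB to 0.11, and MT-CO2 and MT-CO3 were higher with R157K by 0.53 and 0.37 (adjusted p = 0.01 and 0.043). Of all genes called, 11.1% were higher with R157K, and 66.9% by median ratios. Leaving out WT replicate 2, which enters through the shared estimate of spread, gave 4 calls: MT-CO1, MT-ATP6, MT-CO2 and MT-ATP8 (adjusted p = 0.0039, 0.0245, 0.032 and 0.011). Without R157K replicate 2, MT-CYB and MT-ATP6 were called beside MT-CO1 (adjusted p = 0.044 and 0.0496), and MT-ATP6 was called without R157F replicate 3 (adjusted p = 0.039) and without WT replicate 3 (adjusted p = 0.037).

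**Figure D2:**
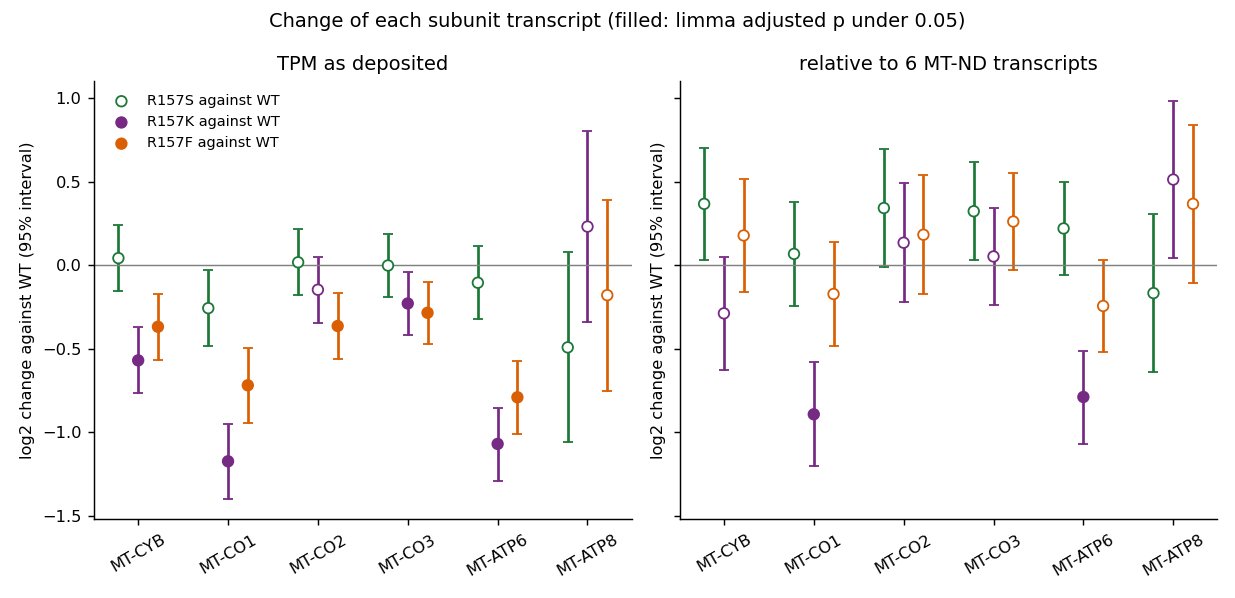
Log2 change of the 6 transcripts with each variant against WT, with 95% intervals from limma, as TPM (left) and relative to the mean of 6 mitochondrial complex I transcripts of the same library (right); filled points passed an adjusted p of 0.05. With R157K, MT-CO1 and MT-ATP6 are called in both panels, and all R157F and R157S points on the right are open.

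By mean TPM, MT-ATP8 came first with every plasmid, and MT-CYB last. In WT the order was MT-ATP8, MT-CO1, MT-CO2, MT-ATP6, MT-CO3 and MT-CYB, and R157S had the same order. The first place in WT rested on replicate 2, and in WT replicate 1 MT-CO1 was above MT-ATP8. In WT and R157S the ranges of MT-ATP8 and MT-CO1 overlapped, and all other neighbours were apart. R157K differed: MT-CO2, at 7382 ± 733 TPM, was above MT-CO1, at 5044 ± 235 TPM, and MT-CO3, at 2944 ± 237 TPM, was above MT-ATP6, at 1980 ± 149 TPM, which overlapped MT-CYB. With R157F MT-CO3 was also above MT-ATP6, at 2829 ± 144 and 2409 ± 263 TPM, and the ranges of MT-CO1 and MT-CO2 overlapped (SD, n = 3 each).

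Ratios within a library, which no scaling of libraries can change, showed this directly. MT-CO1 over MT-CO2 was 0.703, 0.646 and 0.707 in R157K, 1.10, 1.13 and 1.04 in R157F and 1.09, 1.21 and 1.17 in R157S, against 1.48, 1.55 and 1.19 in WT. In R157K, MT-CO1 lay below MT-CO2 in all 3 libraries, and in the other 9 libraries it lay above. MT-ATP6 over MT-CO3 was 0.673 ± 0.018 in R157K, 0.850 ± 0.050 in R157F and 1.12 ± 0.05 in R157S, against 1.21 ± 0.07 in WT (SD, n = 3 each). MT-ATP6 and MT-CO3 are adjacent genes, and the order of their levels was turned with R157K and R157F.

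MT-ATP8 over MT-ATP6, genes that share a message, ranged from 2.36 to 9.27. The ratio was 7.96, 8.31 and 9.27 in R157K, 4.89, 4.38 and 6.80 in R157F and 2.99, 2.36 and 2.59 in R157S, against 2.73, 5.67 and 2.65 in WT. R157K was above all WT libraries, and WT replicate 2 was above the lower 2 R157F libraries. MT-ND4L and MT-ND4 of complex I also share a message, and MT-ND4L over MT-ND4 was 4.26 ± 0.35 in R157K, 1.70 ± 0.35 in R157F and 0.89 ± 0.04 in R157S, against 1.64 ± 0.89 in WT, where replicate 2 again was highest, at 2.65. In each pair the first gene is the short one, so the short reading frame stood higher relative to its partner in R157K in both pairs.

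**Figure D3:**
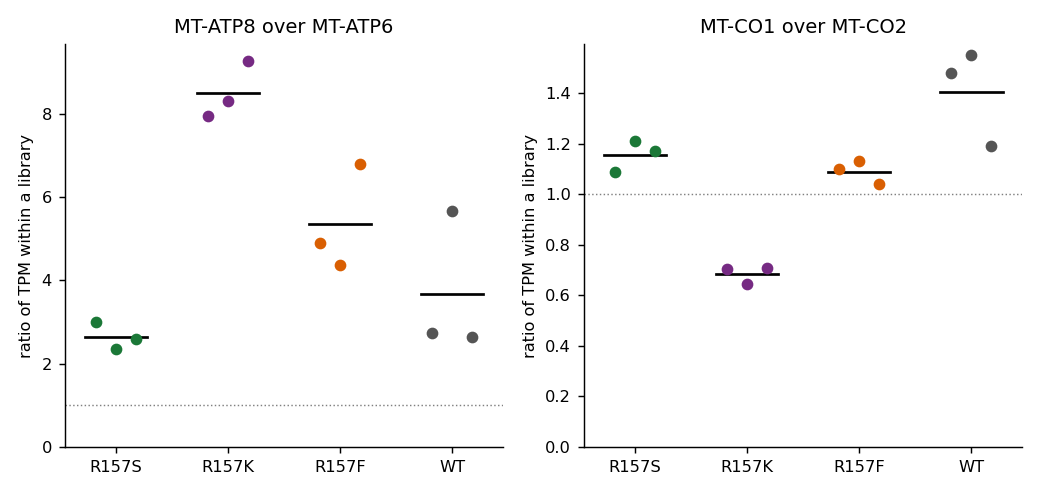
Ratio of TPM within each library (points; bars are means of 3) for MT-ATP8 over MT-ATP6 (left) and MT-CO1 over MT-CO2 (right), with a dotted line at equal TPM. R157K has the highest MT-ATP8 to MT-ATP6 ratios, 7.96 to 9.27, and the only MT-CO1 to MT-CO2 ratios below 1.

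The 6 transcripts summed to 35907 ± 2313 TPM in R157K, 33203 ± 1036 TPM in R157F and 37949 ± 766 TPM in R157S, against 45438 ± 8707 TPM in WT. In shares of the library these are 3.59%, 3.32%, 3.79% and 4.55%. Most of the WT spread came from MT-ATP8 in replicate 2. Without MT-ATP8 the other 5 made up 1.91% ± 0.15 of R157K, 2.05% ± 0.12 of R157F and 2.77% ± 0.05 of R157S libraries, against 2.98% ± 0.24 of WT libraries (SD, n = 3 each). On this sum R157K (1.81% to 2.08%) and R157F (1.94% to 2.18%) lay below WT (2.76% to 3.24%), and R157S (2.72% to 2.80%) overlapped it. Of the 13 mitochondrial mRNAs together, MT-CO1 alone was 8.01% ± 0.28 in R157K, 13.6% ± 1.2 in R157F and 16.5% ± 0.9 in R157S, against 15.9% ± 3.2 in WT.

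Each library was also divided by the mean of MT-ND1, MT-ND2, MT-ND3, MT-ND4, MT-ND4L and MT-ND5, the heavy-strand transcripts of complex I. With R157K these transcripts changed by -1.31 (MT-ND5) to 1.81 (MT-ND3), and MT-ND4 and MT-ND5 fell more than MT-CO1 and MT-ATP6. A call on this scale is therefore relative to their mean, and does not set a subunit apart from each of them. On this scale 2 of 6 fell with R157K, where 30.4% of genes fell, 19.7% rose and 50.1% were called: MT-CO1 by 0.89 ± 0.14 (adjusted p = 0.00034) and MT-ATP6 by 0.79 ± 0.13 (adjusted p = 0.00037). With R157F 0 of 6 were called by limma, where 53.9% of genes were called (45.9% higher and 8.01% lower). Also 0 had an unadjusted p under 0.05 with R157F, and the share of all genes at that looser threshold is not given here. With R157S 0 of 6 were called, where 1.88% of genes were called (1.69% higher). By the looser threshold of an unadjusted p under 0.05, 2 passed, MT-CYB and MT-CO3, and the share of all genes at that threshold is not given here. MT-ND4L, which enters this scale, ranged from 5812 to 19737 TPM in WT and was highest in replicate 2. Without that library, MT-CYB also fell with R157K (-0.48, adjusted p = 0.0013) and MT-ATP8 rose (0.79, adjusted p = 0.00027), and with R157F MT-CO1 and MT-ATP6 fell (-0.30 and -0.33, adjusted p = 0.033 and 0.027) and MT-ATP8 rose (0.64, adjusted p = 0.0024). Without WT replicate 3, MT-CYB, MT-CO2 and MT-CO3 rose with R157S (0.50, 0.48 and 0.41, adjusted p = 0.016, 0.021 and 0.023) and MT-CO3 with R157F (0.35, adjusted p = 0.031).

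On the same scale R157S was higher than R157K in 3 of 6, where 38.1% of genes were higher, 4.21% lower and 42.3% called. These were MT-ATP6 (1.01 ± 0.13, adjusted p = 0.00015), MT-CO1 (0.96 ± 0.14, adjusted p = 0.00033) and MT-CYB (0.66 ± 0.15, adjusted p = 0.0051), and MT-ATP8 was lower (-0.68 ± 0.21, adjusted p = 0.024). The MT-ATP8 call was lost without R157S replicate 2 or 3, or R157K replicate 1 or 3 (adjusted p = 0.058 to 0.088), and without WT replicate 2 all 6 were called, MT-CO2 and MT-CO3 being higher as well (adjusted p = 0.039 and 0.017). R157K was lower than R157F in 3 of 6, where 49.3% of genes were lower and 50.4% called. They were MT-CO1 (-0.72 ± 0.14, adjusted p = 0.0024), MT-ATP6 (-0.54 ± 0.13, adjusted p = 0.0054) and MT-CYB (-0.47 ± 0.15, adjusted p = 0.027), of which MT-CYB lost its call without any R157K library or R157F replicate 1 or 2 (adjusted p = 0.053 to 0.088). Between R157S and R157F 0 of 6 were called by limma, where 0.116% of genes were called and 0.0204% were lower. By the looser threshold of an unadjusted p under 0.05, 2 passed, MT-ATP6 (0.46) and MT-ATP8 (-0.53). The share of all genes at that threshold is not given here. Without WT replicate 2 these 2 transcripts were called (adjusted p = 0.015 and 0.016).

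The complex I transcripts themselves spanned a wider range. With R157K 5 of 7 fell, where 46.2% of all genes fell, and 3 by median ratios, where 4434 of 14718 genes did. MT-ND5 fell by 1.31 and MT-ND4 by 1.25 (adjusted p = 2.8e-06 and 1.6e-06). MT-ND3 rose by 1.81 (adjusted p = 5.4e-07), at 7709 ± 957.5 TPM against 2185 ± 168 TPM in WT. With R157F 5 of 7 fell, where 33.8% of all genes fell, and 4 by median ratios, where 4189 of 14718 genes did. MT-ND4L fell only just (adjusted p = 0.0499, and 0.0541 with the replicate block), and MT-ND3 rose by 0.48 (adjusted p = 0.0026). With R157S MT-ND4L and MT-ND5 fell (by 1.02 and 0.37, adjusted p = 0.042 and 0.046), and without WT replicate 2 none of the 7 was called. MT-RNR2, the large rRNA, fell with R157K and R157F (-0.57 and -0.62, adjusted p = 0.0004 and 0.00059), and MT-RNR1, the small rRNA, with R157F only by this threshold (-0.32, adjusted p = 0.043, and 0.0629 with the replicate block), its R157K difference being -0.09. With the GC and length trends removed, neither rRNA was called. MT-CO1, MT-ND4 and MT-ND5, the 3 longest of the mRNAs, had similar changes with R157K (-1.17, -1.25 and -1.31).

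Across the 13 mitochondrial mRNAs, the change with R157K went with annotated length. Spearman's rho between length and log2 change was -0.83 with R157K, -0.55 with R157F and 0.03 with R157S (n = 13 transcripts, which share libraries and in part sequence, so these are descriptions). Among the 6 subunits rho was -0.66, -0.37 and 0.37. Length did not order all of them: MT-ATP6 and MT-CO2, at 681 and 684 bases, changed with R157K by -1.07 and -0.15, and with R157F by -0.79 and -0.36. MT-CO3, at 784 bases and next to MT-ATP6, changed by -0.23 with R157K. Nuclear genes also differed by length, with medians in R157K against WT of 0.01 for 490 genes of 300 to 600 bases, 0.37 for 930 genes of 600 to 1000 bases, 0.07 for 2736 of 1000 to 2000, -0.35 for 5291 of 2000 to 4000 and -0.73 for 4686 of 4000 or more. The 72 nuclear genes under 300 bases had a median of -0.39. The part of transcript length was addressed only by removing such trends, as follows.

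With the trends of GC content and length across 14205 nuclear genes removed, MT-CO1 and MT-ATP6 still fell with R157K (-0.85 and -0.91, adjusted p = 3.2e-05 and 1.4e-05) and with R157F (-0.47 each, adjusted p = 0.0038 and 0.0029). MT-CO3 and MT-CYB kept their calls with R157K (-0.18 and -0.40, adjusted p = 0.034 and 0.0012). MT-ATP8 became 1.02 higher with R157K (adjusted p = 0.011), a value to be read with care, since only 15 nuclear genes in that fit were as short as MT-ATP8 or shorter. On the same scale MT-CO2 and MT-CO3 were not called with R157F (-0.16 and -0.10).

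**Figure D4:**
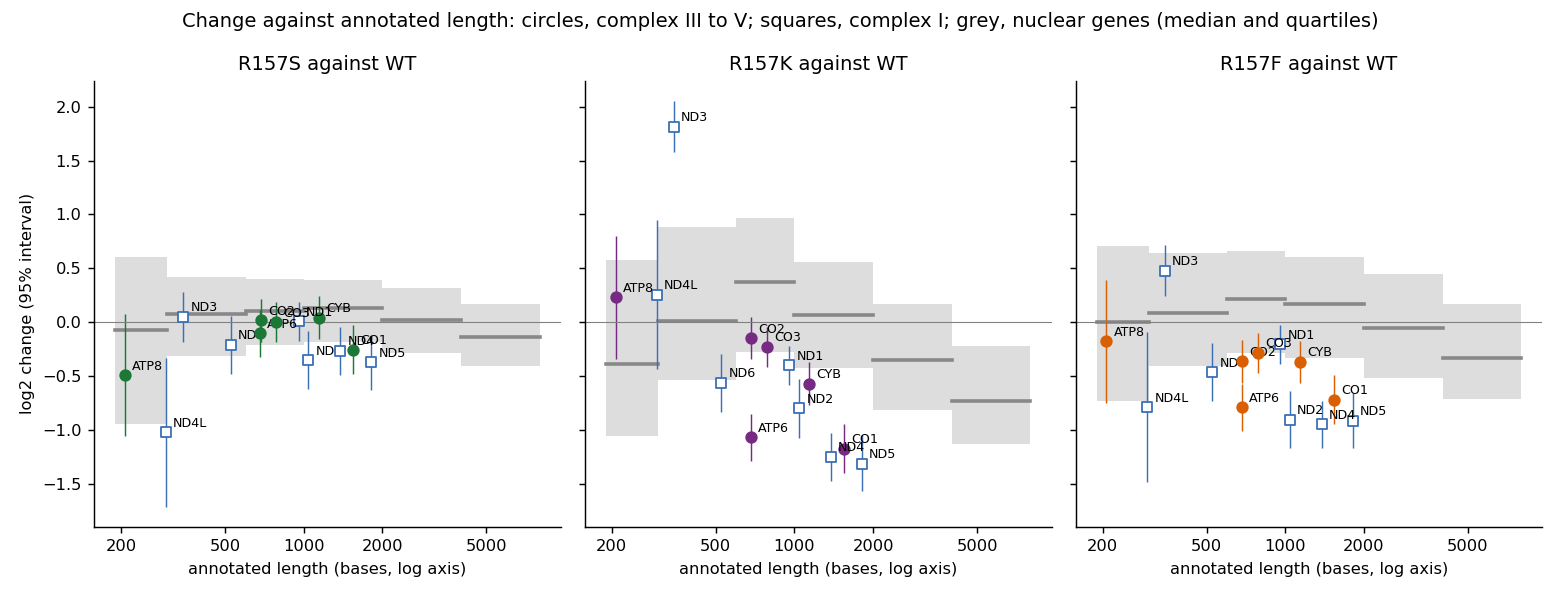
Log2 change with each variant against WT, with 95% intervals, by annotated length on a log axis, for the 6 complex III to V transcripts (circles) and 7 complex I transcripts (squares); grey bars give the median and quartiles of nuclear genes in classes of length. With R157K the 3 longest mRNAs lie lowest and MT-ND3 highest, and MT-ATP6 (-1.07) lies below MT-CO2 (-0.15) at nearly the same length.

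Most nuclear partners of these subunits rose in R157K. Of 13 tested nuclear complex IV genes (16 listed), 9 rose and 1 fell with R157K, where 17.3% of all genes rose, and 7 rose and 1 fell with R157F, where 24.4% rose. COX7A2, a small accessory subunit, had 732 ± 87 TPM in R157K and 318 ± 35 in R157F, against 262 ± 20 TPM in WT, a rise of 1.48 with R157K (adjusted p = 9.9e-07) and 0.28 with R157F (adjusted p = 0.041, or 0.059 when blocked by replicate). COX5B rose by 1.90 and 1.04 (adjusted p = 1.3e-06 and 0.00029), and COX7A2L, which takes part in joining complexes III and IV, was the gene that fell (-0.91 and -0.82), though not with GC and length trends removed (-0.14 and -0.34, adjusted p = 0.39 and 0.072). With R157S 2 of 13 rose, where 7.6% of all genes rose. They were COX5B and COX6A1, by 0.51 and 0.58 (adjusted p = 0.035 and 0.03).

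Among all tested genes 17.3%, 24.4% and 7.6% rose with R157K, R157F and R157S, and 46.2%, 33.8% and 12.8% fell. Of 9 nuclear complex III genes, 6 rose and 2 fell with R157K, 5 rose and 2 fell with R157F, and 1 rose (UQCR10, 0.42) and 1 fell (UQCRB, -0.59) with R157S. Without WT replicate 2 neither R157S call remained, and UQCRB was not called with the trends removed (-0.14, adjusted p = 0.64). UQCRH, the hinge protein, had 390.5 ± 63.4 TPM in R157K, 213 ± 9 in R157F and 175 ± 11 in R157S, against 160 ± 18 TPM in WT, and rose by 1.28 and 0.42 with R157K and R157F (adjusted p = 3.4e-06 and 0.01). UQCRC2, a core protein, fell by 0.64 and 0.41 (adjusted p = 0.00016 and 0.0051), and differed by -0.03 and -0.07 with the trends removed. Of 18 nuclear ATP synthase genes, 12 rose and 3 fell with R157K, 7 rose and 4 fell with R157F, and 2 rose with R157S. With R157S the share that rose in both lists was near that of all genes. ATP5ME, a small membrane subunit, had 1176.5 ± 23.3 TPM in R157K, 561 ± 69 in R157F and 318 ± 66 in R157S, against 183 ± 67 TPM in WT (SD, n = 3 each), and rose by 2.76, 1.68 and 0.85 (adjusted p = 2.1e-06, 0.00029 and 0.032). ATP5PB, of the peripheral stalk, changed by -1.95 with R157K and -1.67 with R157F (adjusted p = 9.2e-07 and 3.5e-05). Removing the GC and length trends left 10, 6 and 15 genes of complexes IV, III and V higher with R157K, and 7, 2 and 8 with R157F. In that fit 2829 and 1977 of 14220 genes were higher with R157K and R157F. With R157S no ATP synthase gene was then called, nor when WT replicate 2 was left out, and the 2 complex IV calls were lost without that library too.

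Nuclear genes that act on mitochondrial RNA were also counted. Of 17 tested genes of RNA processing and stability (18 listed), 3 rose and 12 fell with R157K, 3 and 11 with R157F, and 2 and 6 with R157S (1 and 4 with the replicate block), where 46.2%, 33.8% and 12.8% of all genes fell. LRPPRC, which stabilises mitochondrial mRNAs, fell by 1.22, 0.81 and 0.51 with R157K, R157F and R157S (adjusted p = 5.2e-06, 0.00036 and 0.023). With GC and length trends removed the LRPPRC changes were -0.29, -0.28 and -0.23, not called with R157S (adjusted p = 0.0061, 0.013 and 0.075). Its partner SLIRP rose with R157K and R157F, by 1.45 and 0.42 (adjusted p = 2e-06 and 0.012), and differed by -0.11 with R157S. MTPAP, the mitochondrial poly(A) polymerase, fell by 1.65 and 1.17 with R157K and R157F (adjusted p = 3.6e-05 and 0.00099), and by 0.68 and 0.57 with the trends removed (adjusted p = 0.0083 and 0.031). Removing the GC and length trends left 7, 6 and 0 of these genes lower, where 3228, 2087 and 390 of 14220 genes were lower. Leaving out WT replicate 2 left 12, 10 and 2, where 6705, 4384 and 549 were lower over all genes. By median ratios 11, 9 and 4 were lower, where 4434, 4189 and 1460 of 14718 genes were.

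Of 15 genes of mitochondrial genome maintenance and transcription, 1 rose and 7 fell with R157K, 2 and 6 with R157F, and 0 and 4 with R157S. The shares with R157K and R157F were close to the 46.2% and 33.8% of all genes that fell, and 12.8% fell with R157S. With the trends removed, 2, 0 and 1 were lower, where 3228, 2087 and 390 of 14220 genes were. Without WT replicate 2 the R157S count was 1, where 549 were lower over all genes. TFAM, which packages the genome and starts its transcription, fell by 1.32, 0.81 and 0.53 (adjusted p = 1.9e-05, 0.0014 and 0.04), but after the GC and length trends were removed it was not called with any variant (-0.23, -0.06 and -0.08). POLRMT, the mitochondrial RNA polymerase, rose with R157F (0.95, adjusted p = 0.031; 0.09 and not called with the trends removed) and was not called with R157K (0.29) or R157S (0.69). TEFM, an elongation factor of that polymerase, was not called (-0.19, -0.34 and -0.03 with R157K, R157F and R157S). Of 34 translation and assembly factors, 13 rose and 9 fell with R157K, 10 and 6 with R157F and 3 and 1 with R157S, where 17.3%, 24.4% and 7.6% of all genes rose, SURF1 of complex IV assembly rising with all 3 (by 1.20, 0.78 and 0.60, adjusted p = 7.5e-05, 0.0026 and 0.036). By median ratios 21 rose and 4 fell with R157K, where 4578 and 4434 of 14718 genes did. With the trends removed 21 rose and 3 fell, where 2829 and 3228 of 14220 genes did. Without WT replicate 2 none rose with R157S, where 357 rose over all genes. Of 4 tested regulators of mitochondrial biogenesis (6 listed), 1 rose and 3 fell with R157K, 2 and 1 with R157F and 0 and 1 with R157S, too few to set against those shares. ESRRA rose with R157K and R157F (1.03 and 0.66), and GABPA fell with all 3 variants (-1.29, -0.94 and -0.64 with R157K, R157F and R157S). With the trends removed GABPA was not called (-0.15, -0.11 and -0.12), and ESRRA was called with R157K (0.46) and not with R157F (-0.10).

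**Figure D5:**
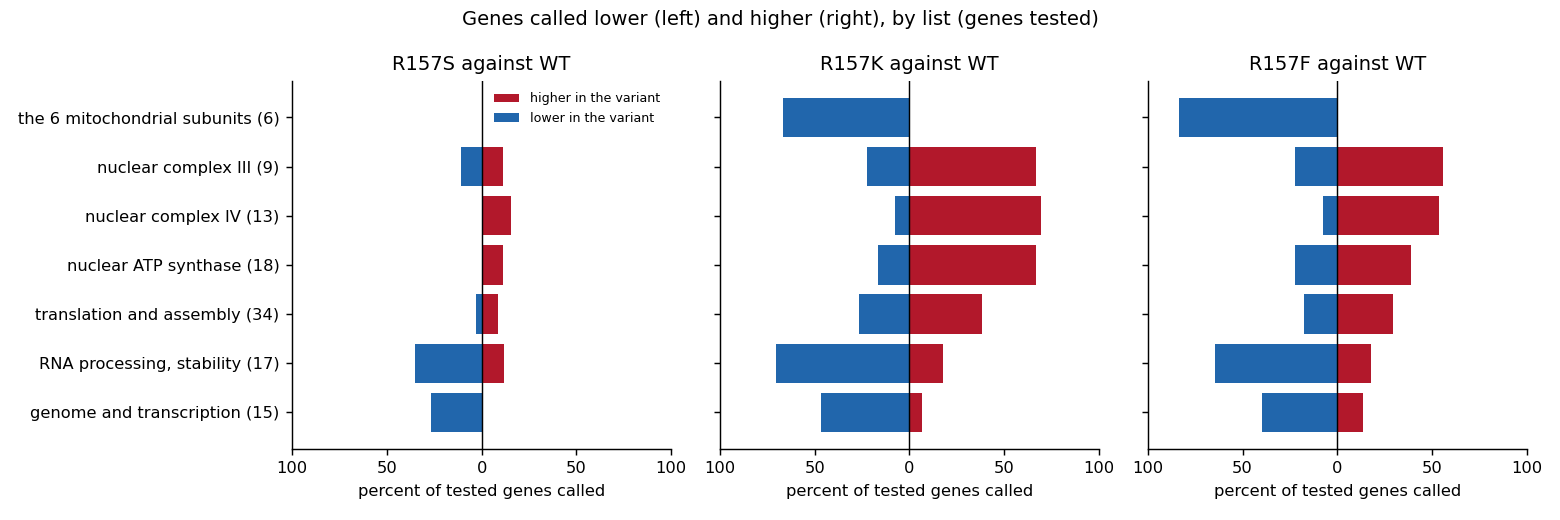
Percent of tested genes called lower (left of 0) and higher (right of 0) with each variant against WT, for the 6 mitochondrially encoded subunits and 6 lists of nuclear genes, with the number of genes tested in brackets. With R157K 4 of 6 mitochondrial subunits are lower, while 9 of 13 complex IV, 6 of 9 complex III and 12 of 18 ATP synthase genes of the nucleus are higher. Of all tested genes, which are not drawn, 46.2% were lower and 17.3% higher with R157K.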

How the data were processed

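Each value is a TPM, estimated and deposited by the authors in a table of 12 libraries; for this step RSEM appears in the submitters' processing notes, with no version number. Aligner, genome build, annotation and strand setting are unstated in those sources. Library totals were 999999.03 to 1000000.89 TPM, 0 pairs of libraries were identical, and TPM keep no sequencing depth, so no counting interval was computed. Groups came from the labels. Whether a group's libraries came from separate cultures is unstated, so the p-values reflect spread among libraries that may be technical.

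Log2(TPM + 1) of 14718 genes (at least 1 TPM in at least 3 libraries) was fitted with limma 3.58.1 in R 4.3.3, with 1 coefficient per plasmid, 8 residual degrees of freedom and a trend on mean expression. Calls used an adjusted p under 0.05, by the Benjamini-Hochberg method over all tested genes. Fold changes of low genes are understated on this scale. Intervals are 95% intervals of limma. GC and length trends were fitted per library on nuclear genes with mgcv 1.9.3. Lengths, positions and sequences came from GENCODE 29. Pathway genes named are up to 3 called per list and comparison with the lowest adjusted p, plus all mitochondrial genes, MSX1, LRPPRC, SLIRP, MTPAP, TFAM, POLRMT and TEFM. The 6 genes and the lists were chosen with earlier results of these data known. The test was checked on simulated data.

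The labels give the replicate number in a field named batch, which pairs the libraries across plasmids. Deviations from the group means correlated at -0.13 to 0.39 over 18 same-numbered pairs, and 2 pairs were above 0.1. Of the 12 libraries, 3 were closest on average to the libraries of their own number. The alternatives were a pseudocount of 0.1, no filter, the replicate block, median-ratio scaling, scaling to the non-mitochondrial total, removal of GC and length trends, a model of the 2 groups alone, and leaving out each library. Counts in the lists of pathway genes without WT replicate 2, by median ratios, with the trends removed and with the block were added after seeing the data.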

Additional observations from a re-analysis of the deposited data

How the results depend on the processing

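MT-CO1 and MT-ATP6 kept their direction and their call against WT with R157K and with R157F under all 19 alternatives. Over the 6 transcripts in the 6 comparisons, and in the 3 against WT relative to the MT-ND transcripts, there were 990 alternative values, of which 857 kept direction and side of the threshold, 66 lost the call, 36 gained it and 31 changed sign; the cause was not tested. Depth is unknown, so no limit from it can be given. Scaling by median ratios or to the non-mitochondrial total was not run relative to the MT-ND transcripts, where a library's scale cancels.

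With no filter MT-CO3 lost its call in R157K against WT (adjusted p = 0.183). The number of the 6 called moved with the filter: with no filter it was 3 in R157F against WT, 3 in R157S set against R157K, 1 in R157S set against R157F, 0 in R157K set against R157F and 3 for the 4 plasmids together. By median ratios it was 2, 3, 1 and 2 for the first 4 of these comparisons, and with trends removed 2 for R157F against WT, 2 for R157S against R157F, 3 for R157K against R157F and 4 relative to the MT-ND transcripts for R157K against WT. For R157K against R157F it was 2 with a pseudocount of 0.1, with the replicate block and in the model of these 2 groups. Leaving out single libraries, the number called ranged from 0 to 2 (R157S against WT), 3 to 6 (R157K), 4 to 5 (R157F), 3 to 5 (R157S against R157K), 0 to 5 (R157S against R157F) and 1 to 4 (R157K against R157F), and relative to the MT-ND transcripts from 0 to 3, 2 to 4 and 0 to 3. For the 4 plasmids together it was 5 to 6. Over all genes, R157S against WT had 1119 higher and 1883 lower, but 5 and 4 in the model of these 2 groups, 182 and 408 with no filter, 476 and 390 with trends removed, 20 and 19 without R157S replicate 2 and 2598 and 3151 without WT replicate 3. R157S against R157F had 635 and 163, but 26 and 7 without R157F replicate 3 and 2785 and 1830 in the model of these 2 groups. With trends removed R157K against WT had 2829 and 3228 (2553 and 6806 before), R157F against WT 1977 and 2087 (3596 and 4975) and R157K against R157F 821 and 807 (486 and 3884). By median ratios R157S against R157K had 2169 and 2625 (6209 and 1162). The block changed no call other than those of MT-CO2 and MT-ATP6 given above among the 6 transcripts.

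Changes of sign were mostly of small values. By median ratios the log2 changes were 0.27 for MT-CO2 and 0.19 for MT-CO3 (R157K against WT), 0.029 for MT-CO3 (R157S against WT), -0.23 for MT-CO2 and -0.16 for MT-CO3 (R157S against R157K), and 0.11 for MT-CYB and 0.033 for MT-ATP6 (R157K against R157F). With trends removed they were 0.11 for MT-CO3, 0.092 for MT-ATP6 and 0.15 for MT-ATP8 (R157S against WT), 0.48 for MT-ATP8 (R157F against WT), -0.080 for MT-CO3 (R157K against R157F), and, relative to the MT-ND transcripts, -0.076 for MT-CO1 and 0.23 for MT-ATP8 (R157S against WT) and -0.17 for MT-CO2 and -0.27 for MT-CO3 (R157K against WT). Scaled to the non-mitochondrial total, MT-CO2 was -0.0084 (R157S against WT). Over single libraries left out, values that changed sign ranged from -0.0081 to 0.089 for MT-CYB, -0.046 to 0.075 for MT-CO2 and -0.042 to 0.038 for MT-CO3 (R157S against WT), -0.029 to 0.65 for MT-ATP8 (R157K against WT), -0.44 to 0.24 for MT-ATP8 (R157F against WT) and -0.0086 to 0.10 for MT-CO3 (R157K against R157F). Relative to the MT-ND transcripts they ranged from -0.056 to 0.17 for MT-CO1 and -0.31 to 0.11 for MT-ATP8 (R157S against WT), -0.067 to 0.27 for MT-CO2 and -0.079 to 0.14 for MT-CO3 (R157K against WT), and -0.011 to 0.31 for MT-CYB and -0.019 to 0.32 for MT-CO2 (R157F against WT).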

Other observations

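Among nuclear genes averaging at least 10 TPM, the 5 whose centred log2 levels over the 12 libraries lay closest to the mean of the 6 transcripts were FAM136A, PLPP1, ETFA, PCNA and RBBP7, with root mean square differences of 0.0693 to 0.0748. For MT-ATP8 alone they were ATP5MG, GTF2A2, COX7B, SOX11 and TMEM70, at 0.196 to 0.233. Among the 6 themselves MT-CO2 and MT-CO3 were closest (0.0883), followed by MT-CO1 and MT-ATP6 (0.112), and MT-ATP8 differed from the others by 0.468 to 0.707.

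Of 187 nuclear copies of the 6 genes in the table, 165 were listed at 0 in every library. Beside MTATP6P1, those averaging at least 1 TPM were MTCO1P12, at 5.00 TPM in R157K, 6.53 in R157F and 7.42 in R157S, against 8.22 TPM in WT, and MTCO1P53, at 1.49, 1.04 and 2.37 TPM in R157K, R157F and R157S, against 2.18 TPM in WT.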
